A study of Mus musculus with 12 samples.

Results

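The clustered histone genes of the mouse were followed in the aorta, and their members were the probes whose gene name began with Hist, a cluster number and h. They comprised 55 probes for 49 gene names among the 55681 non-control probes of the array. The linker genes, which encode histone H1, had 6 probes for 6 genes. The core genes had 49 probes for 43 genes, namely 15 probes for 14 H2A genes, 12 for 12 H2B genes, 8 for 8 H3 genes and 14 for 9 H4 genes. Hist1 genes lie on chromosome 13 (40 probes for 36 genes), Hist2 genes on chromosome 3 (10 probes for 9 genes), Hist3 genes on chromosome 11 (3 probes for 3 genes) and Hist4 genes on chromosome 6 (2 probes for 1 gene). Gene names are those of the array design, and the current names of most of the same genes begin with H1, H2ac, H2bc, H3c and H4c.

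All 12 samples were aortas of young adult male C57BL/6J mice taken on day 3, each from its own mouse, in 4 groups of 3. The DMSO group received the vehicle alone by intraperitoneal injection, and its sample titles begin with "Pre". The rapamycin group received 2 mg/kg/day of rapamycin, an inhibitor of the kinase mTOR, in DMSO. The BA+DMSO group received DMSO injections and the BA challenge, which is 150 mg/kg/day of the collagen crosslink inhibitor β-aminopropionitrile (BAPN) with 1 µg/kg/min of angiotensin II (AngII) from osmotic pumps, a model of aortic dissection. The BA+rapamycin group received the challenge and rapamycin, which was started with the challenge. The segment was whole aortic wall above the renal arteries, so a change in the number of cells of a type and a change in RNA per cell cannot be told apart.

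Core histones form the protein spool of the nucleosome, on which DNA is wound, and linker histones bind the DNA where it enters and leaves the spool. Genes of the clusters supply most histone protein during DNA replication, when new DNA has to be packaged. Their messages usually end in a conserved stem-loop in place of a poly(A) tail, although some cluster genes are also polyadenylated in cells that have left the cycle. The labelling kit named in the labels primes from poly(A), and its part in the values below was not tested.

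All comparisons rest on 3 mice a group. Values are log2 signals minus the 75th percentile of their array, so 0 is the signal at that percentile and a difference of 1 is 2-fold. Testing required a signal well above background on each of the 3 arrays of some group, which held for 40 of the 55 members (5 linker, 12 H2A, 8 H2B, 4 H3 and 11 H4 probes) and for 27801 probes in all. Calls were made by limma with p-values adjusted over all tested probes and a threshold of 0.05. Of the members, 33 were well above background on all 12 arrays. The 15 members that were not tested were Hist1h1d, Hist1h2ac, Hist1h2ae, Hist2h2ab, Hist1h2bg, Hist1h2bp, Hist1h2bq, Hist3h2bb-ps, Hist1h3a, Hist1h3f, Hist1h3g, Hist1h3i, Hist1h4m and 1 of the 2 probes each of Hist2h4 and Hist4h4, and 8 of them were not well above background on any array.

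Histone genes of one class are near copies of each other, and the probe sequences are shown here because they set how far one gene can be told from the next. All are 60 bases long, are printed 5′ to 3′ in the sense of the messenger RNA, and have mm9 coordinates given by the array files. The first set covers the end of the H2A coding sequence, and capitals mark bases that differ from the Hist1h2ak probe in the aligned stretch.
Hist1h2ak: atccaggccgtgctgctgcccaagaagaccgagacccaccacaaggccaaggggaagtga
Hist1h2af: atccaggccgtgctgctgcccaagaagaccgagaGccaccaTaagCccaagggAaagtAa
Hist1h2ag: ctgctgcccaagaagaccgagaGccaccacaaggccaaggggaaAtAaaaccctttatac
Hist1h2ah: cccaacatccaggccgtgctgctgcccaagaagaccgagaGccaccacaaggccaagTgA
Hist1h2an: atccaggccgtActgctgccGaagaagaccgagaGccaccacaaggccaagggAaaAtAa
Hist2h2aa2: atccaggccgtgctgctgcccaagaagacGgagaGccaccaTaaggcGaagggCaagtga
Hist1h2ak lies at chr13:21845304-21845363, Hist1h2af at chr13:23626113-23626172, Hist1h2ah at chr13:22127035-22127094, Hist1h2an at chr13:21878695-21878754 and Hist2h2aa2 at chr3:96049837-96049896. Hist1h2af and Hist2h2aa2 each matched Hist1h2ak in 55 of 60 aligned bases and Hist1h2an in 54 of 60, while Hist1h2ah matched in 51 of 54 and Hist1h2ag in 45 of 48. Hybridization of one gene's message to another's probe could not be told apart, so these probes are treated as readings of a group of H2A genes.

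A further set is shown for other probes the results turn on. The first Hist1h2ak probe below starts at the start codon, in capitals (chr13:21845637-21845696), and the Hist2h2ac (chr3:96024378-96024437) and Hist1h1e (chr13:23713707-23713766) probes end at the stop codon, in capitals. The Hist1h1a (chr13:23855888-23855947) and Hist1h1b (chr13:21871923-21871982) probes carry the lysine and alanine codons typical of linker histones. The Hist2h2ac probe lies in the H2A coding end as well and shares 34 bases in a row with the coding-end Hist1h2ak probe, as long a run as Hist1h2af and Hist1h2ah share with it, so it too is treated as a reading of the group.
Hist1h2ak: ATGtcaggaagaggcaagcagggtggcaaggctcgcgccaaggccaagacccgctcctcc
Hist2h2ac: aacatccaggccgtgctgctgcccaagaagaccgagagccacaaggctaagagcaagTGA
Hist1h1e: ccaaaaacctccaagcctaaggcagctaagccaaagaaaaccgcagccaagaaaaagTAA
Hist1h1a: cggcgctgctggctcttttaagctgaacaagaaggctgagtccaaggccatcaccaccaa
Hist1h1b: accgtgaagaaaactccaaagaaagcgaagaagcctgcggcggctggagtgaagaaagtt

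The H4 probes show the same likeness. Probes of 4 H4 genes are printed to set beside their values below, with capitals for bases that differ from the Hist1h4k probe.
Hist1h4k: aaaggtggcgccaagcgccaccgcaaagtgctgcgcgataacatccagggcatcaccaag
Hist1h4c: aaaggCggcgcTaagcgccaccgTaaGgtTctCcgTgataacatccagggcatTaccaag
Hist1h4d: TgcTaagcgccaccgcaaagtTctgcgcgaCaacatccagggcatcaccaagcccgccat
Hist1h4j: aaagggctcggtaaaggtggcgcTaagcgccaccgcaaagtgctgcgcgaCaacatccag
Hist1h4k lies at chr13:21842279-21842338, Hist1h4c at chr13:23790223-23790282, Hist1h4d at chr13:23673515-23673574 and Hist1h4j at chr13:21826989-21827048. Hist1h4j matched Hist1h4k in 46 of 48 aligned bases, Hist1h4d in 48 of 52 and Hist1h4c in 52 of 60. Of the 55 member probes, 15 list more than 1 RefSeq transcript in the array files, up to 4.

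Arrays of unchallenged aortas were alike, with correlations between replicates of 0.987 to 0.993 over the tested probes. The BA+DMSO arrays correlated at 0.912 to 0.961 and the BA+rapamycin arrays at 0.974 to 0.982. The 75th percentile of raw intensity ran from 221 to 337 without the challenge, while the BA+DMSO arrays had 78.1 to 246 and the BA+rapamycin arrays 74.6 to 109. BA+DMSO replicate 2 was the dimmest of its group and had the lowest histone signal of its group in 30 of the 40 tested members. The share of all tested probes with that order was not counted, so it cannot be called particular to the members. All DMSO arrays and rapamycin replicate 1 lay on one slide and the other 8 arrays on the second, so slide and challenge cannot be told apart in DMSO against BA+DMSO alone. Smooth muscle markers (Acta2, Myh11, Tagln, Cnn1 and Smtn) were well above background in every group.

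The BA challenge raised some clustered histone genes and not others. Of the 40 tested members, 16 probes named for 13 genes rose and 2 probes named for 2 genes fell in BA+DMSO against DMSO, and 22 were not called. Over all tested probes 20.5% were called, 9.65% higher and 10.8% lower. Called increases were 2 of 5 linker probes, 9 of 12 H2A probes, 1 of 8 H2B probes, 1 of 4 H3 probes and 3 of 11 H4 probes. The 9 H2A probes were named for 8 genes, though those at the coding end are readings of a group, and the 3 H4 probes for Hist1h4i alone. Both decreases were H2B probes. By chromosome, 12 of 29 tested Hist1 probes and 4 of 8 Hist2 probes rose, and neither of the 2 tested Hist3 probes nor the tested Hist4 probe was called.

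Among linker genes Hist1h1b, which encodes H1.5, rose. Its DMSO arrays read -1.57, -2.20 and -1.81, the rapamycin arrays -2.96, -2.64 and -2.93, the BA+DMSO arrays 2.71, 1.16 and 2.35, and the BA+rapamycin arrays 1.05, 0.52 and 0.45. The 4 groups did not overlap and stood in the order rapamycin, DMSO, BA+rapamycin, BA+DMSO. The challenge difference was 3.94 ± 0.35 (SE), a 15.3-fold increase, with an adjusted p of 0.000163 in limma.

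Hist1h1a, which encodes H1.1, was not well above background on any unchallenged array. It read -4.16, -4.20 and -5.78 in DMSO, -4.28, -4.61 and -4.61 in rapamycin, -0.36, -2.04 and -1.16 in BA+DMSO and -2.39, -1.88 and -2.78 in BA+rapamycin. Every challenged array was above every unchallenged one, and the BA+DMSO and BA+rapamycin ranges overlapped. The increase was at least 6.77-fold, computed against the lowest signal called well above background on each DMSO array, with an adjusted p of 0.00112 in limma for the fitted difference of 3.53 ± 0.48. The probe entered the test only through BA+DMSO, the group where it is high, so its call and its place in the count of linker increases were favoured by the filter.

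Hist1h1c and Hist1h1e, which encode H1.2 and H1.4, were the brightest linker probes. Hist1h1c read 3.13, 3.20 and 2.90 in DMSO, 3.48, 3.28 and 3.28 in rapamycin, 2.81, 1.62 and 2.84 in BA+DMSO and 1.79, 1.62 and 1.53 in BA+rapamycin. Its BA+DMSO arrays were all below the DMSO arrays, 1 of them far below, and the difference of -0.65 ± 0.29 was not called (adjusted p = 0.128 in limma). The Hist1h1c probe starts beyond the end of the RefSeq gene model, and so it would read a message longer than that model.

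Hist1h1e read 3.51, 3.75 and 3.81 in DMSO, 3.64, 3.77 and 3.27 in rapamycin, 5.04, 5.43 and 3.76 in BA+DMSO and 4.92, 4.79 and 4.67 in BA+rapamycin. BA+DMSO replicate 3 lay within the DMSO range and the other two arrays of its group above it. The difference of 1.05 ± 0.35 missed the threshold (adjusted p = 0.0549 in limma). Hist1h1t, which encodes the testis-type H1t, differed by 1.15 ± 0.43 (adjusted p = 0.0835). It was well above background on 1 DMSO array and entered the test only through BA+DMSO, where it was higher, so this value carries the same limit as that of Hist1h1a. Hist1h1d was not tested.

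**Figure D1:**
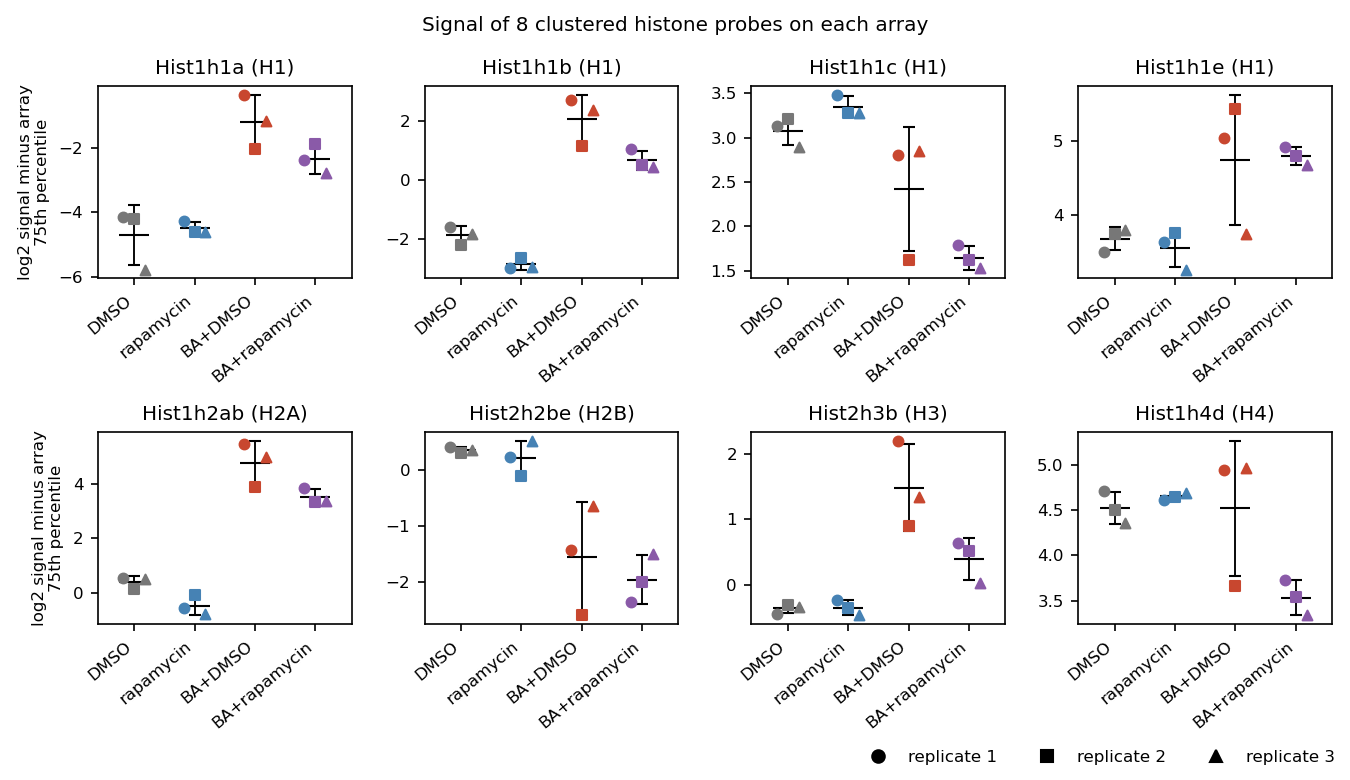
Log2 signal minus the 75th percentile of the array for 8 histone probes (y axis, own scale in each panel) in the 4 groups (x axis). Each point is 1 mouse, its shape the replicate, and bars give the mean and SD of 3. In Hist1h1b and Hist1h2ab all 6 challenged arrays lie above all 6 unchallenged arrays, while in Hist2h2be they all lie below.

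H2A genes carried most of the increase among core histones. Hist1h2ab, a core H2A gene of the chromosome 13 cluster, read 0.54, 0.14 and 0.51 in DMSO, -0.53, -0.06 and -0.77 in rapamycin, 5.45, 3.88 and 4.97 in BA+DMSO and 3.84, 3.33 and 3.36 in BA+rapamycin. No groups overlapped. Its challenge difference of 4.37 ± 0.36, a 20.7-fold increase, had an adjusted p of 0.000104 in limma and was the largest among the members well above background on all 12 arrays.

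Hist1h2an read 4.01, 4.21 and 4.37 in DMSO, 3.86, 3.92 and 3.58 in rapamycin, 7.86, 7.00 and 7.03 in BA+DMSO and 6.33, 6.20 and 6.09 in BA+rapamycin. Hist1h2ag read 4.26, 4.49 and 4.66 in DMSO, 3.95, 4.02 and 3.64 in rapamycin, 8.35, 7.35 and 7.41 in BA+DMSO and 6.81, 6.59 and 6.58 in BA+rapamycin. In both probes the 4 groups were separate. The challenge differences were 3.10 ± 0.23 for Hist1h2an (adjusted p = 9.01e-05, the smallest of the members) and 3.24 ± 0.26 for Hist1h2ag (adjusted p = 1e-04). The other coding-end probes, printed above, rose too, by 2.35 in Hist1h2ah, 2.32 in Hist1h2ak, 2.16 in Hist1h2af and 1.75 in Hist2h2aa2.

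The Hist1h2ak probe at the start codon, which shares no more than 10 bases in a row with the coding-end Hist1h2ak probe, also rose. It read 0.88, 0.61 and 0.91 in DMSO, 0.30, 0.52 and 0.53 in rapamycin, 4.51, 2.60 and 4.07 in BA+DMSO and 2.52, 2.04 and 2.15 in BA+rapamycin. All challenged arrays were above all unchallenged ones. Its difference was 2.93 ± 0.39 (adjusted p = 0.000947 in limma).

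On chromosome 3, Hist2h2ac read 5.46, 5.58 and 5.55 in DMSO, 5.31, 5.46 and 5.27 in rapamycin, 8.10, 7.34 and 7.38 in BA+DMSO and 6.89, 6.65 and 6.77 in BA+rapamycin. It rose by 2.07 ± 0.21 (adjusted p = 0.000254 in limma), with no overlap between challenged and unchallenged arrays. The other 3 tested H2A probes did not pass. Hist1h2aa, which encodes a testis-type H2A, differed by 0.10 ± 0.24, Hist2h2aa1 by -0.04 ± 0.19 and Hist3h2a by -0.51 ± 0.27. Hist2h2aa1 and Hist2h2aa2 are neighbouring and near-identical genes. The array files place their probes close together on the same strand. The Hist2h2aa2 probe is in the coding end (chr3:96049837-96049896) and the Hist2h2aa1 probe covers the stem-loop (chr3:96049949-96050008). By these coordinates the 2 readings may come from 2 places in 1 gene, so a difference between the 2 genes cannot be read from them.

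Of the 8 tested H2B probes 1 rose, 2 fell and 5 were not called. The 2 that fell start far into their transcripts, at base 1849 in Hist2h2be and base 2375 in Hist1h2be. They would therefore read long messages of these genes, and whether short ones moved alike was not tested. Hist2h2be, an H2B gene known to be polyadenylated as cells differentiate, read 0.41, 0.30 and 0.35 in DMSO, 0.23, -0.11 and 0.51 in rapamycin, -1.43, -2.60 and -0.65 in BA+DMSO and -2.37, -2.00 and -1.51 in BA+rapamycin. All challenged arrays were below all unchallenged arrays. It fell by 1.91 on the log2 scale (SE 0.41, adjusted p = 0.00976 in limma). The Hist2h2be probe was not well above background on all 12 arrays, so the size of this fall may not be exact. With only probes that were, 1 member was called lower in the challenge.

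Hist1h2be read -0.61, -0.32 and -0.18 in DMSO, -0.35, -0.31 and -0.35 in rapamycin, -1.64, -1.35 and -1.35 in BA+DMSO and -1.35, -1.24 and -1.05 in BA+rapamycin. It was lower on every challenged array, and it fell by 1.07 (SE 0.17, adjusted p = 0.00219). Hist2h2bb, the only H2B probe that rose, read -1.32, -0.02 and -0.48 in DMSO, -1.11, -1.38 and -2.06 in rapamycin, 1.97, 0.84 and 0.50 in BA+DMSO and 0.48, 0.51 and 0.09 in BA+rapamycin. Its challenged arrays were above its unchallenged arrays, with an increase of 1.71 ± 0.42 (adjusted p = 0.0175) that was no longer called without DMSO replicate 1 or without BA+DMSO replicate 1. The other 5 H2B probes were Hist1h2bb with a difference of 0.58 ± 0.66, Hist3h2ba with 0.27 ± 0.36, Hist1h2bm with -0.38 ± 0.33, Hist1h2ba with -0.43 ± 0.35 and Hist1h2bc with -0.59 ± 0.30, none called.

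Many H2A and H2B genes stand head to head and share 1 stretch of DNA upstream, and Hist2h2ac and Hist2h2be are such a pair. The 191 bases between them, chr3:96220881-96221071 in the RefSeq annotation of GRCm38.p6, are printed on the Hist2h2ac strand because the probes named for these neighbours moved in opposite directions, by 2.07 and -1.91. The first has the limit that it reads the H2A group. It starts at base 330 of its transcript and the second at base 1849, so the 2 probes do not read like parts of the 2 genes. Capitals mark the CCAAT box (CCAAT, either strand) and the TATA box (TATAAA, Hist2h2ac strand).
Between Hist2h2be and Hist2h2ac: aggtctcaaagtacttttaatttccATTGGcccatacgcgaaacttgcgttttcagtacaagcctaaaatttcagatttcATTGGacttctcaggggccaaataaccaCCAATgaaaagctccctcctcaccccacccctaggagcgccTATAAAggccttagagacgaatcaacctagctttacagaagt
CCAAT stood 83 bases before the Hist2h2ac start on its strand and 166 and 111 bases before it on the other strand, and TATAAA stood 42 bases before it. Of the 4 other head to head pairs of member genes, 1 had both genes tested, Hist1h2ba and Hist1h2aa with 280 bases between, and neither of these was called.

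Across the 250 bases upstream of 42 member genes with a RefSeq promoter, searched on both strands, CCAAT was present in 85.7%, against 34.5% of 27025 genes. TATAAA was present in 52.4%, against 13% of all genes. The octamer (ATTTGCAT), the motif of the factor encoded by Pou2f1, was present in 28.6%, against 1.61%. It was in 7 of 14 H2A and 5 of 9 H2B promoters and in none of the 6 H1, 5 H3 and 8 H4 promoters. CCAAT was in all H1, H2A, H2B and H3 promoters searched and in 2 of 8 H4 promoters.

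Of the 4 tested H3 probes, Hist2h3b rose. It read -0.44, -0.31 and -0.34 in DMSO, -0.23, -0.36 and -0.47 in rapamycin, 2.20, 0.89 and 1.34 in BA+DMSO and 0.64, 0.51 and 0.03 in BA+rapamycin. The challenged arrays were above the unchallenged ones and BA+DMSO was above BA+rapamycin throughout. Its difference was 1.84 ± 0.29 (adjusted p = 0.00224 in limma), beside 0.34 ± 0.23 in Hist1h3d, -0.31 ± 0.23 in Hist2h3c2-ps, named as a pseudogene, and -0.58 ± 0.31 in Hist1h3c, none of which was called.

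Among H4 genes the 3 probes of Hist1h4i rose by 1.48 ± 0.43 (adjusted p = 0.0327), 1.38 ± 0.30 (adjusted p = 0.0109) and 1.05 ± 0.25 (adjusted p = 0.015). The probe with the middle value lies within the RefSeq gene model and the other two past its end. The probe with the middle value, A_55_P2158697, read -2.51, -2.17 and -1.92 in DMSO, -2.85, -3.17 and -2.93 in rapamycin, -0.08, -0.94 and -1.43 in BA+DMSO and -0.85, -0.86 and -1.21 in BA+rapamycin, and so challenged and unchallenged arrays were separate. The first probe lost its call without any 1 of 4 arrays (DMSO replicates 1 and 2, rapamycin replicate 2 and BA+DMSO replicate 1) and the third without DMSO replicate 2 or BA+DMSO replicate 1.

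The other 8 tested H4 probes differed by -0.39 to 0.17 and none was called. The ends of that range were Hist1h4h at -0.39 ± 0.22 and Hist4h4 at 0.17 ± 0.27, and Hist1h4c differed by 0.11 ± 0.31. Hist1h4d, printed above, read 4.71, 4.51 and 4.36 in DMSO, 4.62, 4.65 and 4.70 in rapamycin, 4.95, 3.66 and 4.97 in BA+DMSO and 3.73, 3.54 and 3.34 in BA+rapamycin. Its BA+DMSO arrays lay on both sides of the DMSO arrays, replicate 2 beside the BA+rapamycin arrays and the other two above DMSO. Hist1h4k, Hist1h4j, Hist2h4 and Hist4h4 showed the same split of the BA+DMSO arrays, with replicates 1 and 3 above all DMSO arrays and replicate 2 below them.

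**Figure D2:**
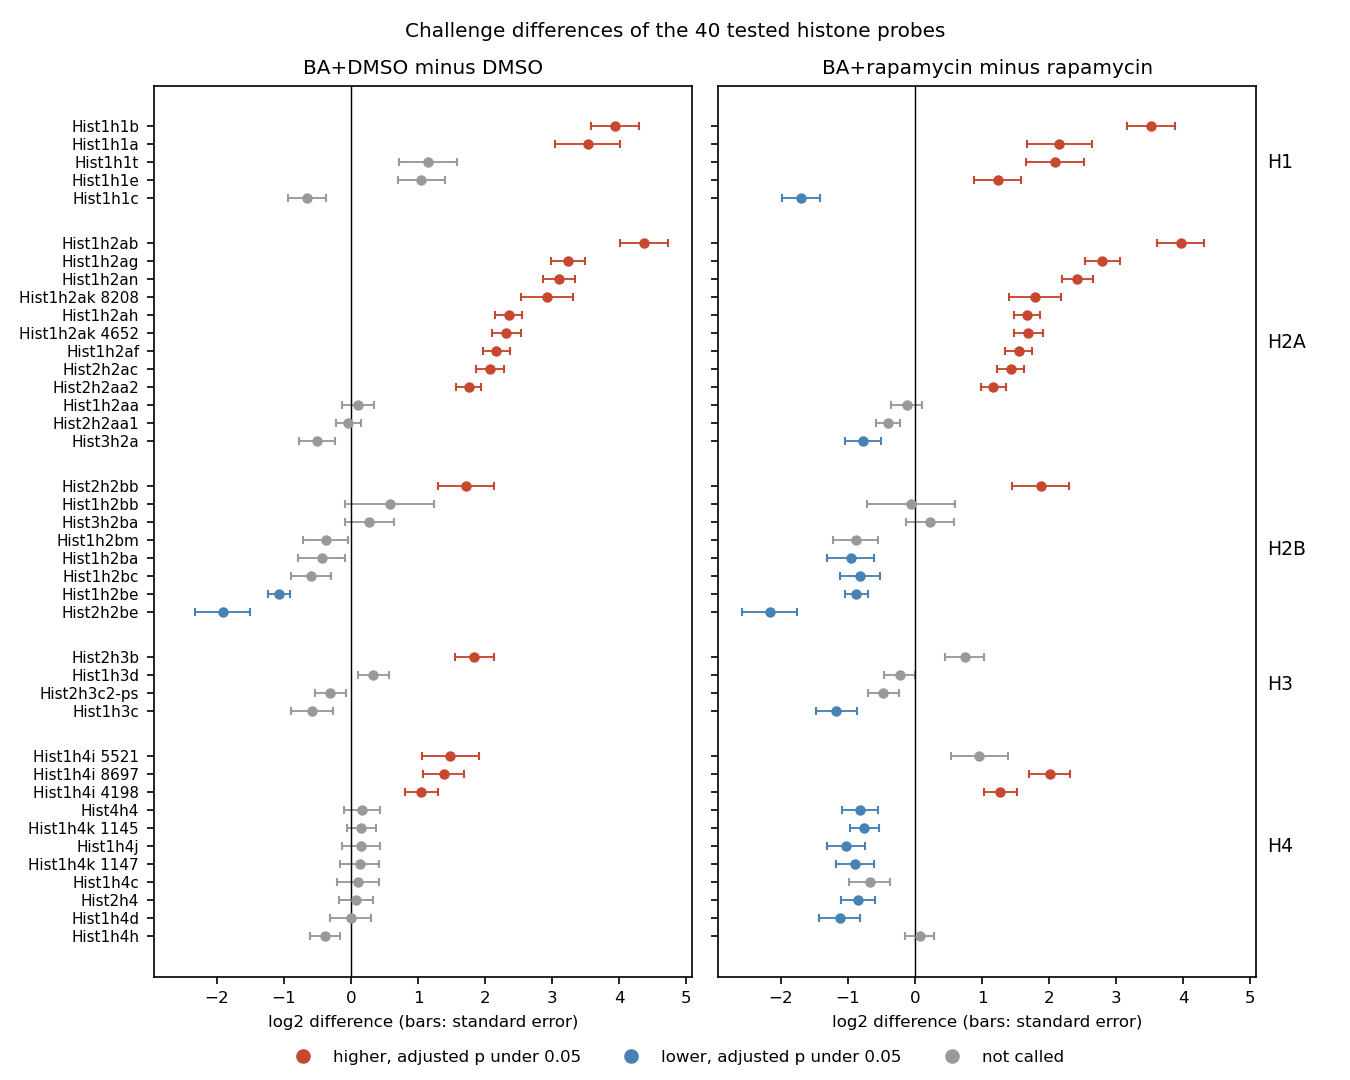
Log2 difference (x axis, bars are SE) for the 40 tested histone probes (y axis, grouped by class; the last 4 characters of the probe name follow genes with several probes), BA+DMSO minus DMSO on the left and BA+rapamycin minus rapamycin on the right. Red is called higher, blue called lower and grey not called; 16 probes are red and 2 blue on the left, and 16 red and 13 blue on the right.

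The slide bears on every challenge call. With slide as a block, which uses rapamycin replicate 1 against the other rapamycin arrays to estimate the slide, all 18 called members kept their direction and had 0.923 to 1.36 times their difference (Hist1h2ab 4.25, Hist1h1b 3.76, Hist2h2be -1.89), but none was called, with adjusted p of 0.0503 to 0.442, and 15 probes were called in the whole array. The rapamycin array on the first slide differed from the mean of the 2 on the second by -0.23 to 0.12 in the 9 H2A probes that rose.

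Medians were further apart among the core histone classes than between linker and core genes. Over all members the median challenge difference was 1.17 for linker and 0.62 for core probes, against -0.04 over all tested probes, and over members well above background on all 12 arrays it was 1.05 for 3 linker and 0.25 for 30 core probes. The core median also fell to 0.33 without BA+DMSO replicate 1, 0.20 with quantile normalization and 0.19 with the deposited normalized values. By class over all members it was 2.07 for H2A, 0.24 for H2B, 1.11 for H3 and 0.16 for H4. The all-member medians include the 15 untested probes, and over the members well above background on all 12 arrays the medians were 2.32 for H2A, -0.43 for H2B, 0.01 for H3 and 0.15 for H4. No test was run between linker and core genes.

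The scale sets where 0 lies for every probe, and so the sign of a class median. Scaling on the spiked-in control RNA in place of the 75th percentile moved every probe in the challenge by -0.82. It put the median of all tested probes at -0.86. On that scale the 9 H2A probes were above 0, at 0.94 to 3.55, and above the all-probe median, but 1 of them was called. The core median was -0.20 and the linker median 0.35. An equal shift of every probe cannot change which values lie above the all-probe median, so that order is no test of the scale.

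**Figure D3:**
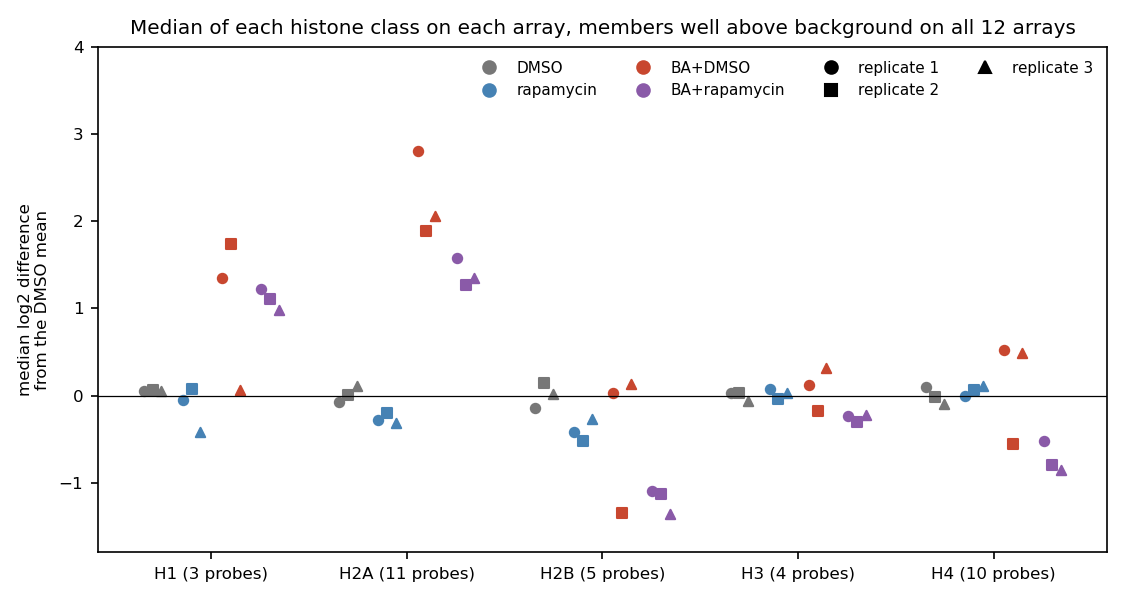
Median over the members well above background on all 12 arrays of the log2 difference from the DMSO mean (y axis) for each histone class (x axis), 1 point per mouse, coloured by group, its shape the replicate. H2A stands above DMSO on all 6 challenged arrays (1.27 to 2.80), and in H2B and H4 the BA+DMSO replicate 2 array lies with the BA+rapamycin arrays.

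Rapamycin under challenge (BA+rapamycin against BA+DMSO) gave lower values in 35 of the 40 tested members, and none of the 40 was called in limma. The smallest adjusted p was 0.077, in Hist1h2an. At an unadjusted p under 0.05 there were 24 of 40 members, against 20.1% of all probes, and 0.281% of all probes were called after adjustment. With all arrays kept, some other settings called members, all lower: 7 with quantile normalization (0.802% of all probes), 5 with the deposited normalized values (0.799%), 11 with the title date as a random block (1.65%) and 2 with an intensity trend (0.611%).

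Every BA+rapamycin array was below every BA+DMSO array in 13 of the 40 members, as in 7.57% of all tested probes, and above in Hist1h2be alone (-1.35, -1.24 and -1.05 against -1.64, -1.35 and -1.35 in BA+DMSO). The 13 were Hist1h1b, the 9 H2A probes that rose in the challenge, Hist2h3b, Hist1h4j and 1 Hist1h4k probe. The 9 H2A differences ran from -1.49 ± 0.39 for the Hist1h2ak start probe to -0.72 ± 0.19 for Hist2h2aa2, and the Hist1h1b difference was -1.40 ± 0.35 (adjusted p = 0.1). These comparisons share the BA+DMSO arrays with the challenge comparison, so a high BA+DMSO reading moves both.

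By class, 9 of 12 H2A, 8 of 11 H4, 2 of 8 H2B, 2 of 4 H3 and 3 of 5 linker probes had an unadjusted p under 0.05. Hist1h1a is among these linker probes and entered the test only through BA+DMSO. Its place in this count and in that over all members was therefore favoured by the filter. Median differences over all members, untested ones included, were -0.83 for H2A, -0.83 for H4, -0.77 for H3, -0.36 for H2B and -0.36 for linker probes, against -0.01 for all tested probes. Over the members well above background on all 12 arrays they were -0.87 for H2A, -0.92 for H4, -0.61 for H3, -0.74 for H2B and -0.78 for linker probes. On the spike-in scale, which moved every probe by -0.96 and put the all-probe median at -0.97, all 40 tested members were below 0. Above the all-probe median, an order that the equal shift leaves as it was, were 2 linker, 2 H2B and 2 H4 probes and no H2A or H3 probe. Hist1h4c (-0.96 ± 0.31), Hist1h4d (-0.99 ± 0.30) and Hist1h4j (-1.06 ± 0.28), which were not called in the challenge, were among the lower H4 probes.

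Leaving out 1 array changed this comparison. In 30 of the 40 tested members all BA+rapamycin arrays were below BA+DMSO replicates 1 and 3, beside 30.0% of all tested probes (8334). In 17 of these 30 members BA+DMSO replicate 2 lay inside or below the BA+rapamycin range, and in 13 above it. It lay above that range in 2104 of the 8334 probes, so this position of BA+DMSO replicate 2 was not particular to the members. Without that array 43 members were tested and 32 were called lower and none higher, where 22.5% of all probes were called lower. The 32 were 3 of 5 linker, 11 of 12 H2A, 4 of 8 H2B, 6 of 7 H3 and 8 of 11 H4 probes. The 3 newly tested members, Hist1h3f, Hist1h3g and Hist1h3i, were well above background on both remaining BA+DMSO arrays and on no BA+rapamycin array, so their calls were favoured by the filter, and 29 of the 40 members tested with all arrays were called lower. Hist1h1a, 1 of the 3 linker calls and of these 29, entered the test only through BA+DMSO, so its call carries the same limit. Differences then ran from -2.05 ± 0.20 in the Hist1h2ak start probe (adjusted p = 0.00127) to 0.68 in Hist1h1t, with -1.86 ± 0.24 in Hist1h1b (adjusted p = 0.0022) and -1.18 ± 0.14 in Hist1h1c (adjusted p = 0.00191).

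BA+DMSO replicate 2 stood apart in other genes as well. Its summed signal of 38 DNA replication genes was 6.74 (log2), against 7.85 and 7.73 in replicates 1 and 3, 6.71 to 6.98 in BA+rapamycin and 6.49 to 7.03 in the unchallenged arrays. Its smooth muscle marker sum was 12.23 against 11.26 and 11.42, with 11.76 to 12.14 in BA+rapamycin. Its neutrophil marker sum was 9.23 against 8.30 and 7.27, with 8.97 to 9.36 in BA+rapamycin. Its macrophage marker sum was 5.95 against 7.06 and 6.47, with 6.43 to 6.50 in BA+rapamycin. Erythroid markers also separated the 2 groups, with a sum of 8.27 to 8.45 on the BA+rapamycin arrays and 6.84 to 7.87 on the BA+DMSO arrays, and none of the 4 tested was called between them. The part of any of these in the histone values was not tested.

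**Figure D4:**
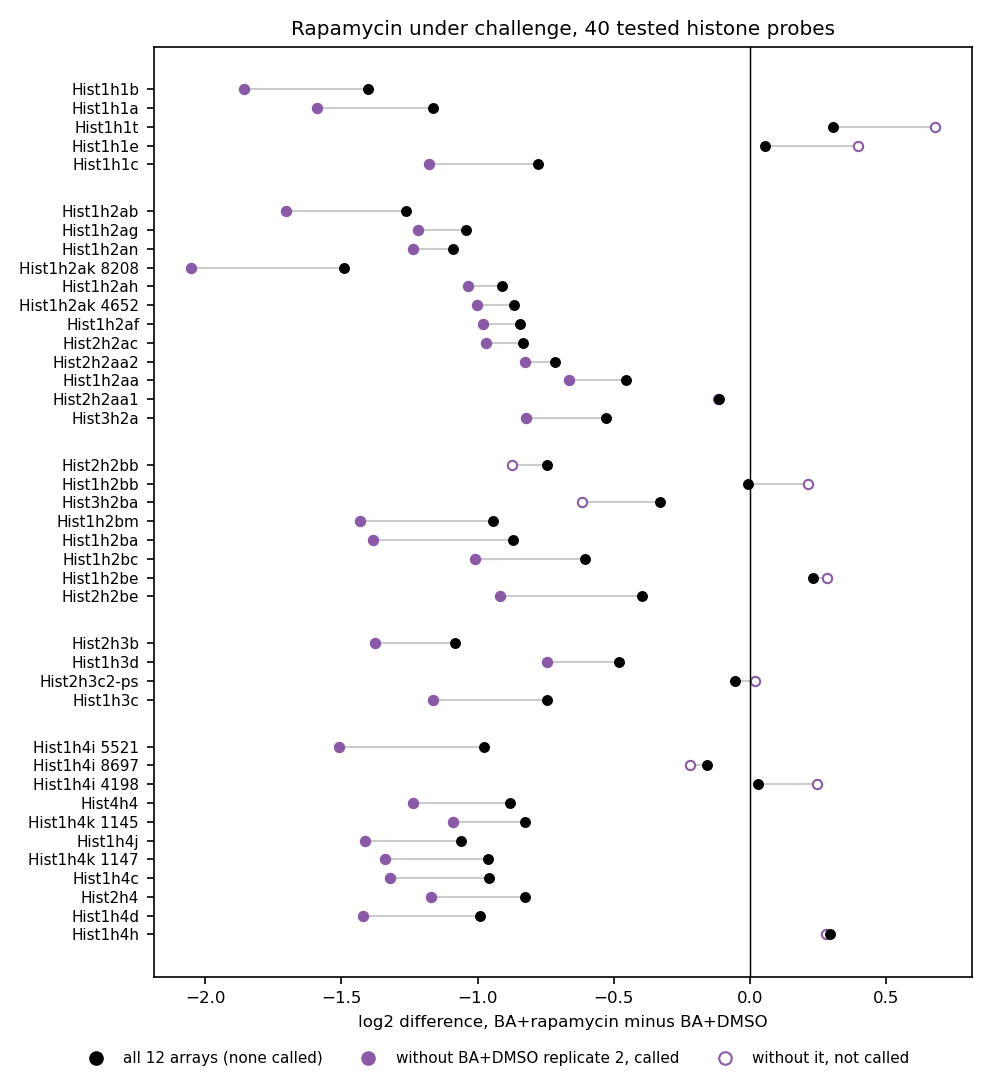
Log2 difference of BA+rapamycin minus BA+DMSO (x axis) for the 40 tested histone probes (y axis, in the order of the challenge plot), from all 12 arrays (black, none called) and without BA+DMSO replicate 2 (purple; filled where called). Without that array 32 of the then 43 tested members were called, all lower.

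Rapamycin alone (rapamycin against DMSO) called none of the 40 members in limma, against 0.00360% of all probes. At an unadjusted p under 0.05 there were 4 members, against 4.27% of all probes, and all 4 were lower: Hist1h1b by -0.99 ± 0.35, Hist1h2ab by -0.85 ± 0.36, the Hist1h4i probe A_55_P2158697 by -0.79 ± 0.30 and Hist1h2ag by -0.60 ± 0.26. Rapamycin arrays were all below the DMSO arrays in 13 members, beside 10.7% of all tested probes, among them 6 of the 9 H2A probes that rose in the challenge, and all above in Hist1h1c and Hist2h2aa1. Every DMSO array lay on the first slide and 2 of the 3 rapamycin arrays on the second, so slide bears on this comparison too. Array weights called 5 members, all lower, beside 5.44% of all probes. On the spike-in scale, where the all-probe median was 0.42, 7 of those 9 H2A probes were above 0. None of the 9 was above the all-probe median, an order that the equal shift of all probes leaves as it was.

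The interaction, the rapamycin difference under challenge minus that without, called none of the 40 members (0% of all probes). At an unadjusted p under 0.05 there were 10 members, against 6.12% of all probes, and the smallest adjusted p was 0.737. They were 6 H4 probes, with Hist1h4j (-1.18 ± 0.40) the lowest, Hist1h1c (-1.05 ± 0.40), Hist2h3b (-1.10 ± 0.41), Hist1h2ah (-0.68 ± 0.28) and Hist2h2ac (-0.65 ± 0.29). Without BA+DMSO replicate 2 the interaction was called in 14 members, all below 0, and in 10.4% of all probes. With all arrays a rapamycin effect that differs between challenged and unchallenged aorta was thus not detectable in a clustered histone gene.

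The challenge under rapamycin (BA+rapamycin against rapamycin) called 16 members higher and 13 lower, a total of 29 of 40, while 41.7% of all probes were called, 18.9% higher and 22.9% lower. The split depended on the setting: spike-in scaling called 1 member higher and 22 lower (82.2% of all probes called), and array brightness as a covariate called 9 higher and 0 lower (6.42%). All 9 H2A probes that rose without rapamycin also rose here, by 1.17 ± 0.19 in Hist2h2aa2 to 3.96 ± 0.36 in Hist1h2ab (adjusted p = 0.000103). All 5 linker probes were called: Hist1h1b rose by 3.52 ± 0.35 (adjusted p = 0.000147), Hist1h1a at least 3.32-fold, Hist1h1t at least 3.22-fold and Hist1h1e by 1.23 ± 0.35 (adjusted p = 0.0179), and Hist1h1c fell by 1.70 (SE 0.29, adjusted p = 0.00181). Within the second slide Hist1h1e differed by 1.27 and was not called (adjusted p = 0.0933 in limma). Spike-in scaling moved every probe by -2.20. Hist1h1e was then at -0.97 and Hist1h1b above 0, both above the all-probe median, which moved with them. The fitted values of Hist1h1a and Hist1h1t were below 0 there, but none of their rapamycin arrays was well above background, so no exact value holds. With array brightness as a covariate Hist1h1e was at -0.18. For Hist1h1a and Hist1h1t, 2 of 3 BA+rapamycin arrays were well above background, and both probes entered the test only through BA+DMSO.

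The decreases were mostly H4 and H2B genes. Their number depended on single arrays. Without rapamycin replicate 3, 3 members were called lower and 15 higher (23.2% of all probes called). Without BA+DMSO replicate 2, 15 were lower and 20 higher (56.8%). None of the 13 was called lower with array brightness as a covariate, where Hist3h2a (0.18), Hist1h2bc (0.26) and Hist4h4 (0.077) were above 0. Every BA+rapamycin array was dimmer than every rapamycin array. Of the H4 probes 6 were lower, Hist1h4d by -1.12 ± 0.30, Hist1h4j by -1.03 ± 0.28, both Hist1h4k probes by -0.90 ± 0.28 and -0.76 ± 0.22, Hist2h4 by -0.85 ± 0.26 and Hist4h4 by -0.82 ± 0.27, while 2 Hist1h4i probes were higher. Of the H2B probes 4 were lower, from Hist2h2be at -2.17 ± 0.41 to Hist1h2bc at -0.82 ± 0.30, and Hist2h2bb was higher by 1.87 ± 0.42. The Hist2h2be value carries the background limit given above. Hist1h3c was lower by -1.17 ± 0.31 and Hist3h2a by -0.78 ± 0.27.

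This comparison also exists within the second slide, where 17 members were called, 14 higher and 3 lower, all with the call they had from all arrays, beside 11.8% of all probes. The 3 lower members were Hist1h1c, Hist1h2be and Hist2h2be. None of the 6 H4 decreases was called there (adjusted p = 0.0831 to 0.129 in limma), although their differences of -1.14 to -0.79 were about as large as from all arrays. Hist1h2ab differed by 3.92 there (adjusted p = 0.00773), Hist1h1b by 3.46 (adjusted p = 0.0085) and Hist1h1c by -1.64 (adjusted p = 0.0366). On the spike-in scale, where the all-probe median was -2.29, 3 of the 9 H2A probes stayed above 0 and all 11 H4 probes were below 0. The equal shift left the order against the all-probe median as it was, with all 9 H2A and 4 of the H4 probes above it.

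The genes that serve the histone genes were read from lists, whose counts are set against the shares of all tested probes called in the challenge (9.65% higher, 10.8% lower) and in the challenge under rapamycin (18.9% higher, 22.9% lower). DNA replication genes also rose in the challenge: 21 of 34 tested were called higher and none lower, with a median of 1.28 against -0.04 over all tested probes. The largest differences were in Ccna2, the S-phase and mitotic cyclin A2 (4.19 ± 0.56, adjusted p = 0.000975), Tk1, thymidine kinase (3.80 ± 0.41, adjusted p = 0.00037) and Uhrf1, which maintains DNA methylation at the fork (3.72 ± 0.38, adjusted p = 0.000315). Under rapamycin 14 of the 34 rose and 1 fell in the challenge.

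Among 23 tested histone chaperones, 4 rose and 2 fell in the challenge, with a median of -0.11. The 3 largest differences were increases, in Asf1b by 4.11 ± 0.51 (adjusted p = 0.000715), in Chaf1b by 3.03 ± 0.26 (adjusted p = 0.000125) and in Chaf1a by 2.12 ± 0.38 (adjusted p = 0.00407), the last 2 being subunits of chromatin assembly factor 1. Under rapamycin 5 of the 23 rose, a share near that of all probes, and 8 fell.

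Of 11 tested factors of histone gene transcription and 3′ end processing, 1 rose and 1 fell, shares near those of all probes. Lsm11, part of the U7 particle that cuts histone messages, rose by 0.96 ± 0.27 (adjusted p = 0.0308), Pou2f1, the octamer factor, fell by 0.76 (SE 0.20, adjusted p = 0.0257), and Cpsf2, the third by size, differed by -0.50 ± 0.20. Npat, the main coactivator of these genes, was not well above background on any array. Under rapamycin 2 of the 11 rose and 3 fell, again near the shares of all probes.

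Unclustered histone genes, whose messages are mostly polyadenylated and made outside S phase too, gave 2 increases among 13 tested, beside 9.65% of all probes. Cenpa, the centromeric H3, rose by 3.27 ± 0.56 (adjusted p = 0.0033) and H2afj by 1.71 ± 0.19 (adjusted p = 0.000404), and H1foo, the third by size, differed by 1.07 ± 0.71. The H2afj probe matches the Hist2h2ac probe in 45 of 50 aligned bases, so the 2 readings may share signal, which was not tested. Under rapamycin 3 of the 13 rose, near the share of all probes, and 1 fell. No gene of these 4 lists was called for either rapamycin comparison or for the interaction.

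Markers of other cells moved with the challenge too. All 6 macrophage markers rose, and their summed log2 signal was 4.36 to 5.15 in DMSO, 5.01 to 5.31 in rapamycin, 6.43 to 6.50 in BA+rapamycin and 5.95 to 7.06 in BA+DMSO. Of the other lists, 4 of 4 tested erythroid, 2 of 4 T cell, 1 of 4 neutrophil, 1 of 5 endothelial, 1 of 4 fibroblast and 1 of 5 adipocyte markers rose, none fell, and none of 5 smooth muscle, 2 B cell or 3 striated muscle markers was called. The part of these cells in the histone values was not tested.

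Where a probe sits in the message also varied among members. The stem-loop core CTTTTCAG was in 6 of the 55 member probes (10.9%), against 0.171% of all probes, and 30 bases of each are printed with the core in capitals, since only 2 of these 6 were bright enough to test.
Hist2h2bb: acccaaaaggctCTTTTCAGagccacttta
Hist2h2aa1: aaaaggctCTTTTCAGagccacccactgaa
Hist1h2ae: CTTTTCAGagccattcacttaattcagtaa
Hist1h3a: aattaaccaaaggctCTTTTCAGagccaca
Hist1h3i: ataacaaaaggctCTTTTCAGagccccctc
Hist1h4m: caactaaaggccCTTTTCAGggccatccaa
The probes lie at chr3:96074056-96074115, chr3:96049949-96050008, chr13:23662489-23662548, chr13:23853756-23853815, chr13:21874784-21874843 and chr13:21903960-21904019 in this order (mm9). Of the 2 tested, Hist2h2bb rose and Hist2h2aa1 was not called. Another 9 probes lie past the end of the RefSeq gene model, among them Hist1h1c, Hist3h2a, Hist3h2ba and 2 Hist1h4i probes, and of the 5 tested there the 2 Hist1h4i probes rose. One of these 2 had no RefSeq match of its own and was placed by its coordinates, downstream of the other. Both pseudogene probes had no RefSeq match. Of the other 38 members 32 were tested, of which 13 rose and 2 fell in the challenge. The 2 that fell start at base 1849 (Hist2h2be) and base 2375 (Hist1h2be) of their transcripts, within RefSeq gene models of 2667 and 37455 bases.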

How the data were processed

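Total RNA of 12 aortas was labelled with Cy3 and hybridized to 1-colour Agilent mouse arrays. The deposited scanner intensity (gProcessedSignal) was background-subtracted by the authors' Feature Extraction software, version 10.7.1.1 in the file headers and 9.5.1.1 in the submitters' notes. A deposited table of normalized intensity of the same arrays served as an alternative. From the scanner files, control and outlier spots were removed (3671 control spots of 62976 an array), log2 was taken, spots of a probe were averaged and each array's 75th percentile was subtracted. Probes with at least 0.5 of their spots well above background on all 3 arrays of a group entered limma 3.58.1 in R 4.3.3 (lmFit and eBayes, two-sided, 12 arrays, 4 group means, Benjamini-Hochberg over 27801 probes), which was tested on simulated data. Replicate numbers follow sample order and pair nothing. No counts exist, so the number of arrays limits the precision. Members, gene lists and tests were chosen with earlier results of these data known. Named members were all linker genes and, per core class, the 3 largest rises and falls in the challenge with the brightest probe of each gene, and every tested probe of a gene named; from each list the 3 largest differences. The report adds per-array values of further H2A probes and of Hist1h4d, chosen after their values were seen. Gene models and promoters are from RefSeq, GRCm38.p6, with 52 of 55 member probes matched; probe coordinates are mm9 from the files. Alternatives were other scalings, filters, blocks, weights, the study's rule (unadjusted p under 0.01 with a fold over 4 or under 0.25) and leaving out each array.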

Additional observations from a re-analysis of the deposited data

How the results depend on the processing

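No paired analysis was possible because replicate numbers follow sample order and the numbers that end the titles repeat within groups, in DMSO and BA+rapamycin. The numbers that end the titles do not repeat in rapamycin or BA+DMSO, but these groups have none in common. Dates in some titles are shared across groups, but not by every sample, and entered as a random block. The 18 members called in the challenge became 2 with spike-in scaling (0.773% of all probes), 0 with slide as a fixed block (0.054%), 10 with array weights (0.403%) and 10 with the study's rule (2.51%), against 20.5% of all probes in the reported fit. The 0 members called for rapamycin under challenge became 7 with quantile normalization (0.802%), 5 with the deposited table (0.799%), 11 with the title date block (1.65%) and 2 with an intensity trend (0.611%), and the 0 for rapamycin alone became 5 with array weights (5.44%), whose estimation stopped before it converged. The 29 called in the challenge under rapamycin became 17 within the second slide (11.8%), 9 with array brightness as a covariate (6.42%, 9 higher and 0 lower) and 8 with the study's rule (5.14%), and with spike-in scaling 1 was higher and 22 lower (82.2%). Leaving out each array gave 15 to 24 called members in the challenge (7.13% to 38% of all probes), 0 to 32 for rapamycin under challenge (0.0993% to 39.5%), 0 to 0 for rapamycin alone (0% to 0.0142%), 18 to 35 in the challenge under rapamycin (23.2% to 56.8%) and 0 to 14 for the interaction (0% to 10.4%). BA+DMSO replicate 2 gave the 32 and the 14, and rapamycin replicate 3 the 18. The linker median of 1.17 in the challenge was 0.92 to 1.57 without single arrays and 0.35 with spike-in scaling, and that of -0.36 for rapamycin under challenge was -0.50 to -0.19 and -1.32. The core median of 0.62 in the challenge was 0.33 to 0.86 without single arrays, 0.20 with quantile normalization, 0.19 with the deposited table, -0.20 with spike-in scaling and 0.25 over members well above background on all arrays, and that of -0.72 for rapamycin under challenge was -0.98 to -0.48 and, with spike-in scaling, -1.67. Spike-in scaling put the median of all probes at -0.86 in the challenge, -0.97 for rapamycin under challenge, 0.42 for rapamycin alone and -2.29 in the challenge under rapamycin.

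In the challenge under rapamycin 13 values of named members turned with a call on at least one side, and 22 more changed sign with none. With spike-in scaling they were Hist1h1t -0.11, Hist1h1a -0.051, Hist1h1e -0.97, Hist3h2ba -1.98, Hist2h2bb -0.33, the Hist1h4i probes -0.19 and -0.93 and Hist1h4h -2.13. With array brightness as a covariate they were Hist1h1e -0.18, Hist3h2a 0.18, Hist1h2bc 0.26 and Hist4h4 0.077, and with normexp background correction Hist1h2bb 0.83. Spike-in scaling moved each probe there by -2.20, which by itself turned these 8 and, without a call on either side, Hist2h3b and the remaining Hist1h4i probe. All 8 were above the all-probe median, which the same shift moves with them. The cause of the other 5 was not tested. Over 28 named probes and all settings, 671 of 778 challenge values kept their direction and side of the threshold, 35 changed sign without a call either way, 56 lost and 16 gained a call. The second slide alone holds no DMSO array and the first no challenged one, so the challenge has no value within a slide. Probes near background, such as Hist1h1a in unchallenged aorta and Hist1h1t in rapamycin, give only a bound. The spike-in values of Hist1h1a (-0.051) and Hist1h1t (-0.11) above are therefore fitted values and not exact. Whether these probes turned with spike-in scaling is thus uncertain, although they are counted above.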
